A study of Mus musculus with 34 samples.

Results

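CAD cells labelled as mir-138 knockouts that received a synthetic miR-138 were compared with the same cells that received a synthetic miR-137, in both cases after serum was removed from the medium. The comparison takes 4 of the 34 libraries of the series, 2 for each mimic, chosen by their titles, and it covers all genes. CAD is a mouse catecholaminergic cell line, which the labels call neuroblastoma cells and which takes on a neuron-like form when serum is withdrawn. All cells of these groups carry the genotype labelled mir-138 DKO, the miR-137 and pUC19 groups included. The labels do not say how many DKO clones were used. A mirVana mimic was transfected at 3 nM with Lipofectamine RNAiMAX, serum (10% in the growth medium) was removed 48 h later, and RNA was taken 2 days after that, which is 4 days after transfection. Further libraries of the same experiment give 3 points of reference, each of 2 libraries: the pUC19 DNA group without serum, and the miR-138 and miR-137 mimic groups in serum. pUC19 is a plasmid, not a small RNA, and so does not match a mimic as a control for small-RNA transfection. The labels do not say whether the 2 libraries of a group came from separate cultures, so p-values here measure only the spread between these libraries, which may be technical.

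A microRNA guides an Argonaute protein to messenger RNAs, mainly through pairing of its seed, bases 2 to 8, with sites in their untranslated regions, and the bound messages are then destabilised or translated less. Both miR-138 and miR-137 are enriched in brain. miR-138 is known for limiting the depalmitoylating enzyme Lypla1 at synapses, and miR-137 for acting on chromatin regulators and on presynaptic genes. The mature arms annotated by RefSeq (GRCm38.p6) are shown because they differ in the bases that choose the targets. Capitals mark the seed.
mmu-miR-138-5p: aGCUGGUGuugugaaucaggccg
mmu-miR-137-3p: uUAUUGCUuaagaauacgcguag
The seeds have the same base at 2 of 7 positions, and no other mature mouse miRNA of the RefSeq table has either seed. The miR-138-5p sequence lies in 2 hairpin genes, Mir138-1 on chr9:122682898-122682920 and Mir138-2 on chr8:94324312-94324334, both on the plus strand. miR-137-3p lies in Mir137 on chr3:118433901-118433923, plus strand. The labels do not name the arm of either mimic.

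Reads assigned to genes numbered 13040692 to 15386337 in the miR-138 mimic libraries and 12740836 to 13638216 in the miR-137 mimic libraries. The mitochondrial share of those reads was 2.28 to 2.39% with miR-138 and 1.53 to 1.8% with miR-137, and the part of this gap in the results was not tested. Polyadenylated RNA libraries do not count the mimics themselves. The hairpin gene Mir138-1 read 2.64 and 2.88 CPM (read counts scaled by the TMM-adjusted library size) with miR-138 and 1.71 and 2.47 CPM with miR-137, a log2 difference of 0.39 (SE 0.25) that did not pass the test (edgeR quasi-likelihood, adjusted p = 0.186). Mir138-2 and Mir137 had 0 counts in all 14 libraries of the experiment, which allows up to 0.117 to 0.235 CPM by library, counting error only. The deleted bases are not given in the labels, so reads on Mir138-1 check nothing about the knockout. Of the markers of the cell line, Th, the tyrosine hydroxylase that starts catecholamine synthesis, was near absent at 0.797 and 0.648 CPM with miR-138 and 0.388 and 0.218 CPM with miR-137. Tubb3, Stmn2 and Dbh were present, as described below.

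Messenger RNA profiles differed widely between the mimics. Of 12655 genes that passed the filter on low counts, 7794 (61.6%) differed between miR-138 and miR-137 at a false discovery rate of 0.05 (edgeR quasi-likelihood test, Benjamini-Hochberg adjustment). They split evenly, with 3894 (30.8%) higher and 3900 (30.8%) lower with miR-138. Many differences were modest: the median absolute log2 fold change of called genes was 0.53, and 3624 of them lay under 0.5. At least 2-fold changes were fewer, 953 genes higher (7.53%) and 677 lower (5.35%), and 349 genes passed 4-fold, of which 205 were higher and 144 lower. Replicate libraries were close, with a biological coefficient of variation of 4.72%. Reference points from pUC19 DNA were spaced unequally: 7851 genes (62%) differed between miR-138 and pUC19 and 5406 (42.7%) between miR-137 and pUC19. These 2 contrasts share the pUC19 libraries.

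**Figure D1:**
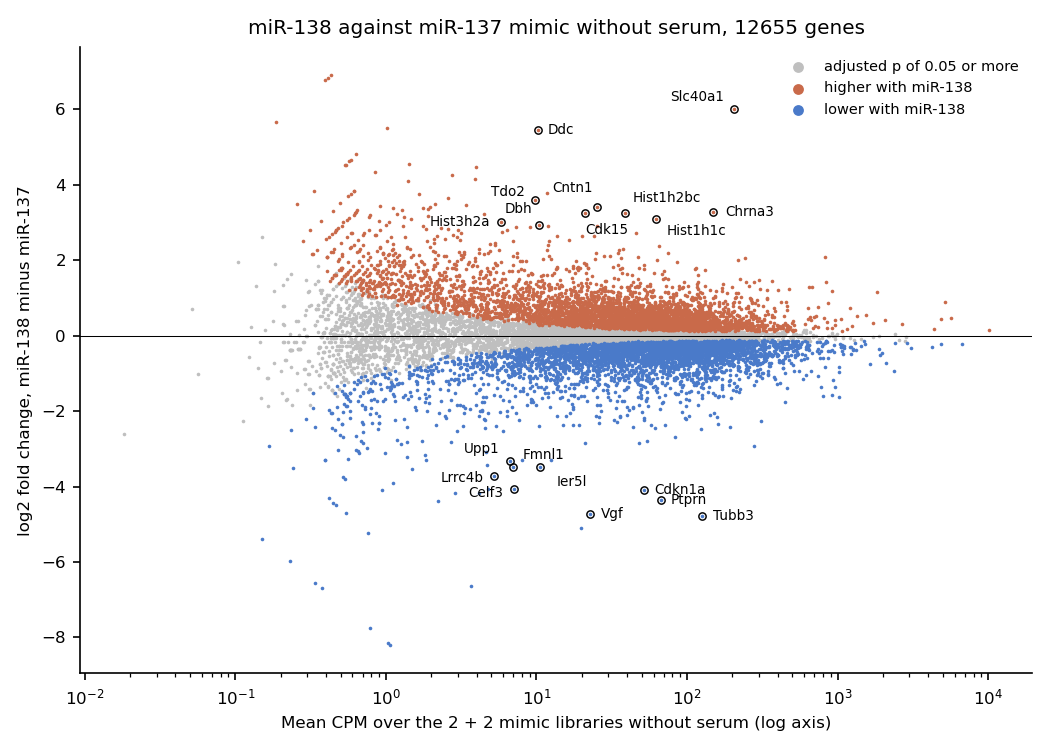
Each point is a gene that passed the filter: mean CPM over the 4 mimic libraries without serum (log axis) against the log2 fold change, miR-138 minus miR-137. Red genes (3894) were higher and blue genes (3900) lower with miR-138; circles name 19 genes with the largest rises and falls and a mean of at least 5 CPM, among them Slc40a1 at 6.00 and Tubb3 at -4.78.

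Among genes with an established symbol, a mean of at least 5 CPM and groups apart, the largest rise was in Slc40a1. This gene encodes ferroportin, the exporter of iron from cells. Slc40a1 read 429 and 381 CPM with the miR-138 mimic, 5.74 and 6.9 CPM with miR-137, and 9.74 and 10.3 CPM with pUC19. The miR-138 libraries stood far above both other groups, which lay close together. The log2 fold change between mimics was 6.00 (SE 0.10, adjusted p = 3.89e-19), a 63.8-fold difference.

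Ddc, the decarboxylase that makes dopamine and serotonin, read 19 and 20.8 CPM with miR-138, 0.543 and 0.363 CPM with miR-137 and 3.31 and 2.79 CPM with pUC19. Here the 3 groups were separate, with pUC19 in between, and the log2 difference between mimics was 5.44 (SE 0.22, adjusted p = 1.16e-13). Dbh, which turns dopamine into noradrenaline, read 16.9 and 19.8 CPM with miR-138, 1.47 and 3.27 CPM with miR-137, and 13.6 and 22.2 CPM with pUC19. For Dbh the miR-138 and pUC19 groups overlapped, and only the miR-137 libraries were low (log2 difference between mimics 2.93, SE 0.27, adjusted p = 1.29e-08).

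Tdo2, a tryptophan-degrading dioxygenase, read 19.3 and 16.8 CPM with miR-138 against 1.16 and 1.82 CPM with miR-137. Chrna3, a subunit of ganglionic nicotinic acetylcholine receptors, read 247 and 289 CPM against 28.4 and 26.9 CPM, with pUC19 between them at 67.6 and 81.8 CPM. Cntn1, a neuronal adhesion molecule of the contactin family, read 46.1 and 45.9 CPM against 3.96 and 4.65 CPM. These 3 genes rose by log2 3.58, 3.28 and 3.41, and none of their groups overlapped.

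Cdk15, a kinase of the cyclin-dependent family, read 38.4 and 37.5 CPM with miR-138, 4.19 and 3.78 CPM with miR-137 and 3.42 and 3.95 CPM with pUC19. Its miR-137 and pUC19 libraries overlapped. The list of 10 rises was completed by the histone genes Hist1h2bc (log2 3.25), Hist1h1c (3.10) and Hist3h2a (3.01). Hist1h1c, a linker histone gene, read 101 and 122 CPM with miR-138, 11.6 and 14.4 CPM with miR-137 and 12 and 11.4 CPM with pUC19. Histone genes have near-identical copies and reads with several matches were not counted, so the values of single histone genes are uncertain. The libraries hold polyadenylated RNA, so these values do not cover histone messages without a poly(A) tail.

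Among the largest falls was Tubb3, the neuronal beta-tubulin used as a marker of young neurons. It read 8.95 and 8.86 CPM with miR-138, 237 and 252 CPM with miR-137, and 37.8 and 51.6 CPM with pUC19. Tubb3 was thus 27.4-fold lower with miR-138 than with miR-137 (log2 -4.78, SE 0.12, adjusted p = 1.99e-16), with the pUC19 libraries in between.

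Vgf, a secreted neuropeptide precursor, read 1.78 and 1.51 CPM with miR-138, 44.7 and 43 CPM with miR-137 and 4.07 and 3.4 CPM with pUC19. Ptprn, a membrane protein of dense-core secretory granules, read 5.7 and 6.84 CPM, 122 and 133 CPM, and 14.1 and 19.3 CPM in the same order. For both genes the miR-137 libraries were far above the other groups, and miR-138 was below pUC19. Celf3, a neuronal splicing regulator, read 0.613 and 1.01 CPM with miR-138, 13.8 and 12.9 CPM with miR-137 and 0.236 and 0.816 CPM with pUC19, so that only the miR-137 libraries were high.

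Cdkn1a, an inhibitor of cyclin-dependent kinases, read 5.03 and 6.55 CPM with miR-138, 90.8 and 105 CPM with miR-137 and 16.2 and 23.1 CPM with pUC19 (log2 difference between mimics -4.09, SE 0.15, adjusted p = 1.85e-14). Further large falls were Lrrc4b, a synaptic adhesion protein (log2 -3.71), Ier5l (-3.49), Fmnl1, an actin-nucleating formin (-3.49), and Upp1, uridine phosphorylase (-3.33). Fmnl1 and Upp1 were low with miR-138 alone. Fmnl1 read 0.797 and 1.51 CPM with miR-138, 10.9 and 14.5 CPM with miR-137, and 11.2 and 13.5 CPM with pUC19. Both pUC19 libraries lay between the mimic groups for 6 of the 10 rises and 7 of the 9 falls described.

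**Figure D2:**
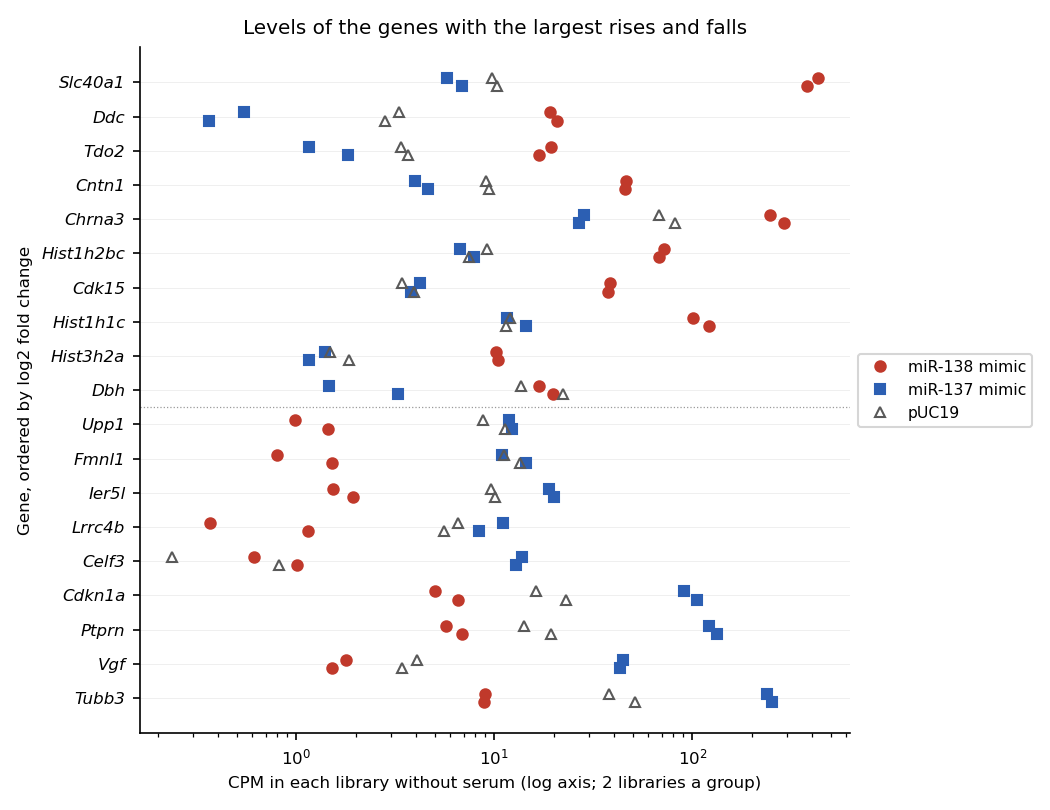
CPM in each library without serum (log axis) for 19 genes with the largest rises and falls with miR-138; circles are miR-138, squares miR-137 and triangles pUC19 libraries, 2 of each. The mimic groups do not overlap for any of the 19 genes, which the choice of genes required, while the pUC19 libraries lie between them for 13.

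Genes reported elsewhere as targets of one of the miRNAs were compared next. Of 25 tested genes on the miR-138 list, 20 were lower with miR-138 than with miR-137, 4 were higher and 1 did not pass (background 30.8% in each direction), with a median log2 fold change of -0.73 against 0.01 for all genes tested. Of the 25, 8 were called and at least 2-fold lower (background 5.35%). Against pUC19, 22 of the 25 were lower with the miR-138 mimic (background 31.1% lower and 30.9% higher over all genes) and 1 was higher, with a median of -0.65. With the miR-137 mimic, 9 were lower (background 22.2%) and 9 higher (background 20.5%) than with pUC19, with a median of -0.06.

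Ccnd3, a D-type cyclin that drives entry into S phase, read 49.2 and 53.9 CPM with miR-138, 188 and 179 CPM with miR-137 and 157 and 144 CPM with pUC19 (log2 difference between mimics -1.84, SE 0.08). Ccnd1, another D-type cyclin, read 48.7 and 48.3 CPM with miR-138 and 182 and 159 CPM with pUC19, and it was 2.77-fold higher with miR-137 than with miR-138. The miR-138 libraries were the low ones for both cyclins. Nfix, a transcription factor of neural progenitors, read 70 and 81 CPM with miR-138, 184 and 176 CPM with miR-137 and 286 and 283 CPM with pUC19, and so was lowest with miR-138 and intermediate with miR-137. Ptk2, the focal adhesion kinase, fell by 1.20 on the log2 scale (80.4 and 82.8 against 189 and 186 CPM).

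Rhoc, a small GTPase of the actin cytoskeleton, read 61 and 72.7 CPM with miR-138, 140 and 140 CPM with miR-137 and 85.9 and 91.1 CPM with pUC19. Vim, the intermediate filament vimentin, read 1560 and 1720 CPM, 3130 and 3120 CPM, and 1860 and 2030 CPM. For these 2 genes the gap had parts on both sides of pUC19, since miR-138 was lower (log2 -0.41 for Rhoc, -0.25 for Vim) and miR-137 higher (0.66 and 0.68) than pUC19, each past the test. Lypla1, Sirt1, a deacetylase, and Ezh2, the methyltransferase of Polycomb complexes, fell by 0.63, 0.64 and 0.74. Lypla1 read 71.3 and 68.9 CPM with miR-138, 108 and 109 CPM with miR-137 and 127 and 110 CPM with pUC19.

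Of 21 tested genes on the miR-137 list, 14 were higher with miR-138 than with miR-137, 4 were lower and 3 did not pass (background 30.8% in each direction), with a median log2 fold change of 0.41. Against pUC19, 17 of the 21 were lower with the miR-137 mimic (background 22.2%) and 0 were higher in edgeR (0 at an unadjusted p under 0.05 and 0 in DESeq2; median -0.51), while 10 were lower with the miR-138 mimic (background 31.1%) and 6 higher (background 30.9%; median -0.09). The lists share Ezh2, which was lower with miR-138 and did not pass against pUC19 with miR-137 (log2 -0.06, adjusted p = 0.525). Over all lists, 23 genes were on more than 1, among them Rhoc, Vim, Ptk2, Ccnd1, Ccnd3 and Syt1. The counts of the lists described below are therefore not fully separate.

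Syt1, the calcium sensor of synaptic vesicle release, read 353 and 350 CPM with miR-138, and 86.2 and 89.1 CPM with miR-137. The pUC19 libraries lay between, and its log2 difference between mimics of 2.00 (SE 0.06, adjusted p = 1.49e-15) came from a rise with miR-138 (1.31 against pUC19) and a fall with miR-137 (-0.69). Esrra, an orphan nuclear receptor of mitochondrial metabolism, read 44.4 and 52.2 CPM against 16.7 and 16.9 CPM, with pUC19 at 32.8 and 32 CPM. Wbp1l and Rictor, a core subunit of one of the mTOR complexes, were higher with miR-138 by log2 1.01 and 0.73.

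Mib1, an E3 ligase of Notch ligands, read 233 and 227 CPM with miR-138, 147 and 144 CPM with miR-137 and 226 and 223 CPM with pUC19. It was low with miR-137 alone, and miR-138 did not differ from pUC19 past the test (log2 0.03, adjusted p = 0.608). Kdm1a, the LSD demethylase of histone tails, read 251 and 241 CPM against 191 and 194 CPM (log2 0.35, SE 0.05, adjusted p = 5.33e-06). Against pUC19 at 201 and 205 CPM, Kdm1a was higher with miR-138 (log2 0.28) and not past the test with miR-137 (-0.08, adjusted p = 0.249). Cdk6, also on the miR-137 list, had at most 0.072 CPM in the mimic libraries without serum and was not tested.

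Genes of DNA replication were lower with miR-138. Of 39 tested, 32 were lower (82.1%, against 30.8% of all genes tested), 7 did not pass and 0 were higher in edgeR (0 at an unadjusted p under 0.05 and 0 in DESeq2), and the median log2 fold change was -0.56. Tyms, which makes thymidylate, read 20.4 and 21.1 CPM with miR-138, 56.3 and 55.8 CPM with miR-137 and 73 and 65.8 CPM with pUC19 (log2 difference between mimics -1.44, SE 0.08, adjusted p = 5.86e-12). Uhrf1, which keeps DNA methylation through replication, read 70.4 and 68.3 CPM against 174 and 160 CPM. Lig1, the replicative DNA ligase, and Cdt1, a loader of the MCM helicase, fell by 1.17 and 0.95 on the log2 scale. For these 4 genes the miR-138 libraries were the lowest of the 3 groups. Against pUC19, 38 of the 39 were lower with miR-138 (background 31.1%) and 0 passed as higher in edgeR (background 30.9%), median -0.75. With miR-137, 19 were also lower than pUC19 (background 22.2%) and 0 passed as higher in edgeR (background 20.5%), median -0.21.

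Mitosis genes were lower with miR-138 in 26 of 32 cases (81.2%, against 30.8% of all genes) and higher in 1, while 5 did not pass, with a median of -0.48. Kif11, the motor that separates spindle poles, read 80.5 and 75.8 CPM with miR-138, 171 and 167 CPM with miR-137 and 189 and 151 CPM with pUC19. Mki67, the proliferation marker, read 375 and 300 CPM with miR-138, 534 and 530 CPM with miR-137 and 581 and 467 CPM with pUC19 (log2 difference between mimics -0.66, SE 0.09). The miR-137 libraries lay within the pUC19 range for Kif11 and Mki67. Prc1, Kif23 and Kif20a, which act at the central spindle, fell by 0.89, 0.72 and 0.55. In bulk RNA, fewer cells of a kind and less RNA per cell cannot be told apart.

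Regulators of the G1 phase moved in both directions: 15 of 23 were lower (65.2%) and 7 higher (30.4%, near the 30.8% of all genes in either direction), and 1 did not pass (median -0.38). Besides Cdkn1a, Ccnd3 and Ccnd1, Mycn, a MYC-family transcription factor, read 39.8 and 42 CPM with miR-138 and 103 and 114 CPM with pUC19, and its log2 difference between mimics was -1.75 (SE 0.07). Higher members included 2 chosen after their values were seen. Rb1, the retinoblastoma protein that holds back E2F factors, read 82.6 and 74.1 CPM with miR-138, 38 and 38.6 CPM with miR-137 and 33.4 and 34.7 CPM with pUC19. Cdkn1c, a CDK inhibitor, was low in all groups, with 1.16 and 1.8 CPM for miR-138, 0.233 and 0.218 CPM for miR-137 and 2.78 and 3.06 CPM for pUC19, so both mimics lay below pUC19.

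Among regulators of the actin cytoskeleton, 23 of 34 tested genes were lower with miR-138 (67.6%, against 30.8% of all genes), 3 were higher and 8 did not pass (median -0.41). Tagln2, an actin-binding transgelin, read 33.7 and 36.3 CPM with miR-138, 164 and 161 CPM with miR-137 and 98.8 and 91.6 CPM with pUC19. Zyx, zyxin of focal adhesions, read 36.5 and 39.8 CPM, 157 and 176 CPM, and 79.7 and 107 CPM. Tpm4, a tropomyosin, and Flna, filamin, fell by 1.41 and 1.04. With pUC19 as reference, 16 of the 34 were lower with miR-138 (background 31.1%) and 6 higher (background 30.9%). With miR-137, 18 were higher than pUC19 (background 20.5%) and 3 lower (background 22.2%).

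Matrix and adhesion genes gave the lowest median of the 16 lists, -0.87, with 19 of 28 lower (67.9%, against 30.8% of all genes) and 4 higher, and 5 that did not pass. Itga6, an integrin subunit that binds laminin, read 58.2 and 59.1 CPM with miR-138, 239 and 245 CPM with miR-137 and 77.4 and 85 CPM with pUC19, so the miR-137 libraries stood apart. Lamc1, a laminin chain, read 402 and 389 CPM, 1230 and 1180 CPM, and 1100 and 1040 CPM, so here miR-138 stood apart. Col4a2, a basement membrane collagen chain, fell by 1.98. Of the fibroblast markers 5 were tested, of which 1, Dcn, was higher and 4 did not pass. The summed level of all 9 markers was 37.2 to 38.2 CPM with miR-138, 14.6 to 15.4 CPM with miR-137 and 26.2 to 28.2 CPM with pUC19. Most of that sum was Dcn, a small proteoglycan (33.4 and 30.5 against 11.1 and 11.3 CPM), and Col3a1 and Thy1 had 0 counts in all 3 groups. The sum over 13 glial markers was 17.9 to 19.2 CPM with miR-138 and 7.77 to 9.16 CPM with miR-137, mostly Aqp4, a water channel (14.3 and 14.9 against 6.52 and 5.23 CPM), with Olig1, Olig2 and Sox10 at 0. The 10 immune and endothelial markers summed to 26 to 27.1 and 26.7 to 28.3 CPM. The part of these markers in the results was not tested.

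**Figure D3:**
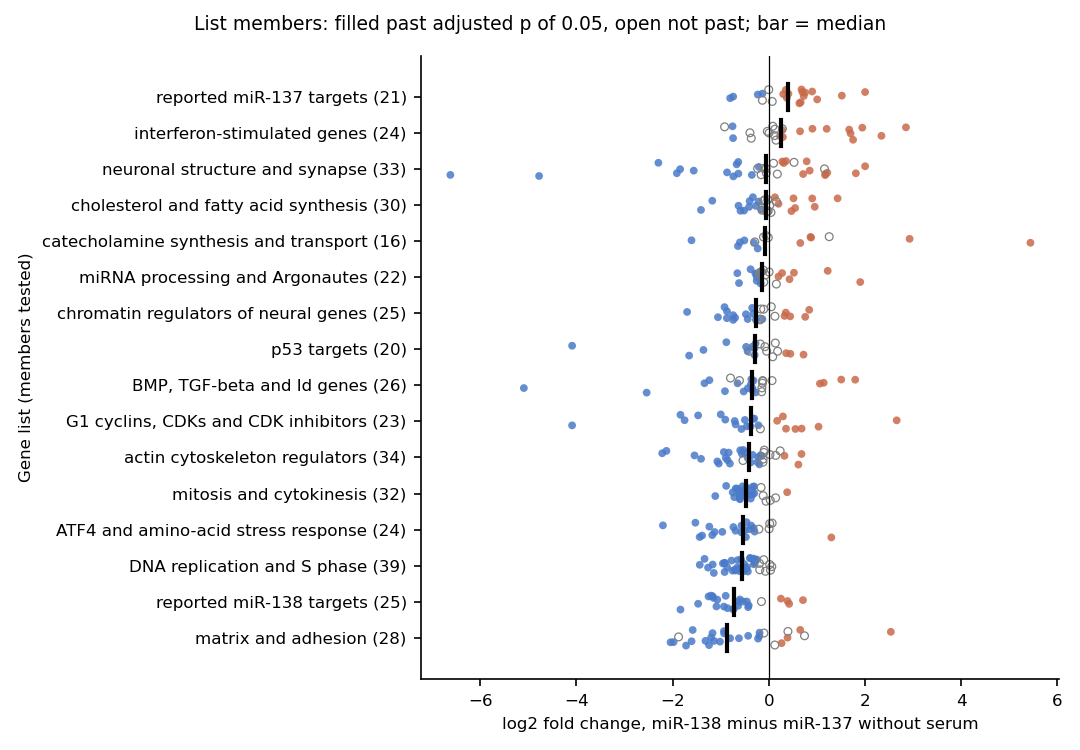
Log2 fold change, miR-138 minus miR-137 without serum, of each tested member of 16 gene lists ordered by their medians (black bars); filled points passed an adjusted p of 0.05 (edgeR quasi-likelihood test) and open points did not. Medians run from -0.87 for matrix and adhesion to 0.41 for reported miR-137 targets, and neuronal genes spread on both sides of 0.

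Of 33 neuronal genes tested, 13 were lower with miR-138 (39.4%), 11 higher (33.3%) and 9 did not pass, with a median of -0.06. These shares were near the 30.8% of all genes called in each direction. Without replicate 2 of miR-138 or replicate 1 of miR-137, 7 passed as higher. Below Tubb3, the falls included Mapt, the microtubule-associated protein tau, at 10.5 and 12.6 CPM with miR-138, 55.7 and 57.5 CPM with miR-137 and 32.9 and 37.9 CPM with pUC19. L1cam, an adhesion molecule of growing axons, read 14.8 and 13.7 CPM, 54.3 and 53.1 CPM, and 9.21 and 10.7 CPM, so it was high with miR-137 alone. Syt1 was the member with the largest rise. A pair of stathmins, which regulate microtubules and were chosen after their values were seen, went in opposite directions. Stmn2 read 26.7 and 32.5 CPM with miR-138, 8.93 and 7.92 CPM with miR-137 and 3.25 and 4.97 CPM with pUC19, while Stmn4 read 0 and 0.144 CPM, 7.3 and 7.19 CPM, and 0.295 and 1.22 CPM. Over the list, 19 of the 33 were higher than pUC19 with miR-137 (background 20.5%) and 6 lower (background 22.2%), median 0.48. With miR-138, 15 were higher than pUC19 (background 30.9%) and 7 lower (background 31.1%), median 0.25.

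The catecholamine list was also near that background, with 5 of 16 higher (31.2%), 6 lower (37.5%) and 5 short of the threshold (median -0.08; 0.03 without replicate 1 of miR-138). The enzymes Ddc and Dbh were higher with miR-138, whereas the transcription factor Gata2 was lower. Gata2 read 80.2 and 90.1 CPM with miR-138, 260 and 258 CPM with miR-137 and 167 and 166 CPM with pUC19. Th did not pass the test (log2 1.26, SE 0.60, adjusted p = 0.0786) at the low level given above.

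BMP, TGF-beta and Id genes were lower with miR-138 in 14 of 26 cases (53.8%, against 30.8% of all genes), higher in 4, and 8 did not pass (median -0.34). Id1, an inhibitor of basic helix-loop-helix factors and a BMP target, read 1.66 and 1.87 CPM with miR-138, 10.2 and 10.2 CPM with miR-137 and 6.79 and 6.8 CPM with pUC19. Skil, a repressor of SMAD signalling that TGF-beta induces, fell by 1.24. The ligand Tgfb2 was higher with miR-138, at 169 and 179 CPM with miR-138, 76.8 and 80.4 CPM with miR-137 and 132 and 127 CPM with pUC19.

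Chromatin regulators of neural genes were lower with miR-138 in 14 of 25 cases (56%, against 30.8% of all genes) and higher in 5, while 6 did not pass (median -0.27). Hdac5, a class II deacetylase, read 21.6 and 29 CPM with miR-138, 81.4 and 82.2 CPM with miR-137 and 49.1 and 64.4 CPM with pUC19. Rcor2, a corepressor that binds Kdm1a, read 25.8 and 27.9 CPM, 55.3 and 56.4 CPM, and 91.9 and 92.3 CPM. Rcor2 was lower than pUC19 with both mimics and lowest with miR-138. Arid1a, a BAF complex subunit, fell by 0.87.

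Genes of the ATF4 response to amino-acid shortage were lower with miR-138 in 19 of 24 cases (79.2%, against 30.8% of all genes), higher in 1 and not past the test in 4 (median -0.53). Slc7a5, a large neutral amino acid transporter, read 263 and 248 CPM with miR-138, 674 and 662 CPM with miR-137 and 447 and 394 CPM with pUC19. The mimics lay on opposite sides of pUC19 for Slc7a5. Over the list, 19 of 24 were higher than pUC19 with miR-137 (background 20.5%) and 2 lower (background 22.2%), while 13 were lower with miR-138 (background 31.1%) and 6 higher (background 30.9%). Shmt2 and Aldh1l2, mitochondrial enzymes of folate metabolism, fell by 1.13 and 1.24. Cth, which makes cysteine, was the 1 member that was higher, at 67.3 and 67.9 against 28 and 26.9 CPM.

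Interferon-stimulated genes were higher with miR-138 in 12 of 24 cases (50%, against 30.8% of all genes), lower in 2 and not past the test in 10. Their median of 0.25 was 0.07 without replicate 2 of miR-138, and with DESeq2 10 were higher and 1 lower. Ddx58, the RIG-I sensor of double-stranded RNA, read 102 and 112 CPM with miR-138, 31.7 and 34 CPM with miR-137 and 39.3 and 41 CPM with pUC19. Eif2ak2, the kinase PKR, which also binds double-stranded RNA, was higher by log2 1.20 and Usp18, a protease that removes ISG conjugates, by 2.85 at a low level (3.98 and 4.25 against 0.543 and 0.581 CPM). All 3 had miR-138 as the high group, with miR-137 and pUC19 nearer each other.

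For p53 targets the count was 10 lower (50%, against 30.8% of all genes) and 3 higher out of 20, and 7 did not pass (median -0.28). Phlda3, a repressor of AKT, read 8.77 and 9.43 CPM with miR-138, 29.4 and 27.9 CPM with miR-137 and 35.1 and 32.7 CPM with pUC19, and Plk3, a polo-like kinase, fell by 1.36. Ccng1, a cyclin induced by p53, was higher by 0.72, so the list did not move one way. Of the sterol and fatty acid synthesis genes, 8 of 30 were higher (26.7%) and 11 lower (36.7%), near the 30.8% of all genes in each direction, and 11 did not pass (median -0.06). Srebf2, the transcription factor of that pathway, read 547 and 603 CPM with miR-138, 1330 and 1270 CPM with miR-137 and 1040 and 1090 CPM with pUC19. Pmvk, a kinase of the mevalonate pathway, and Insig1, which retains sterol sensors in the endoplasmic reticulum, were higher by 1.43 and 0.90, and Elovl6, a fatty acid elongase, fell by 0.63.

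Of the genes of miRNA processing, 6 of 22 were higher (27.3%) and 8 lower (36.4%), near the 30.8% of all genes in each direction, and 8 did not pass (median -0.13). Lin28b, which blocks let-7 maturation, was higher with miR-138 by log2 1.23 (SE 0.08), with 52.7 and 53.4 CPM for miR-137 and 48.5 and 50 CPM for pUC19. Tut4, a uridylating enzyme that works with LIN28 proteins, read 128 and 121 CPM against 187 and 196 CPM. Xpo5, which exports hairpin precursors, was higher by 0.52, with 210 and 183 CPM against 140 and 133 CPM, and the pUC19 libraries (216 and 195 CPM) lay at the level of miR-138. Tnrc6c, a partner of Argonaute, fell by 0.65.

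The same contrast was measured in serum in 4 separate libraries, taken 48 h after transfection. There 8019 genes (63.4%) differed between the mimics, 4133 (32.7%) higher and 3886 (30.7%) lower with miR-138. Of the 7794 genes called without serum, 70% were called the same way in serum, and these 5458 genes were 68.1% of the serum calls. Opposite calls were made for 357 genes, 45 of which had a size of at least 0.5 in log2 in both media. Across genes Pearson's r between the fold changes was 0.68, a description over 12655 genes that share libraries within each medium. The 2 media also differ in time since transfection (48 h against 4 days), and medium and time cannot be told apart.

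The log2 fold change between mimics, taken with its sign, differed between media for 3900 genes (30.8%, interaction test in edgeR, adjusted p under 0.05). It was higher without serum for 1763 of them (13.9%) and lower for 2137 (16.9%). Mitosis genes were among them in 25 of 32 cases, all 25 with the higher log2 fold change without serum. The list median was -0.93 in serum and -0.48 without. Mki67 in serum read 388 and 395 CPM with miR-138, 1030 and 1110 CPM with miR-137 and 939 and 830 CPM with pUC19. From serum to no serum the miR-137 and pUC19 libraries read lower, while those of miR-138 read 300 to 395 CPM in both media; the change between media within a mimic was not tested. Of the replication genes, 16 of 39 had a called difference, 14 of them in the same direction as the mitosis genes.

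Sterol and fatty acid genes differed between media in 22 of 30 cases (background 30.8%). Of the 30, 21 had the lower log2 fold change without serum (background 16.9%). In serum 19 of the 30 were higher with miR-138 (background 32.7%) and 2 lower (background 30.7%), with a median of 0.32, against -0.06 without serum. ATF4 response genes had 12 called differences of 24 (background 30.8%), all 12 lower without serum (background 16.9%). Their member Aldh1l2 changed sign (0.24 in serum, -1.24 without). Reported miR-138 targets had medians of -0.78 in serum and -0.73 without. A difference between media was called for 17 of 25 (background 30.8%). Of the 25, 10 had the higher log2 fold change without serum (background 13.9%) and 7 the lower (background 16.9%).

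Among single genes the miR-138 excess of Slc40a1 and Ddc was larger without serum. In serum Slc40a1 read 37.8 and 40.9 CPM with miR-138, 7.18 and 6.28 CPM with miR-137 and 24.6 and 20.9 CPM with pUC19, a log2 difference between mimics of 2.54. The test of the difference between media gave 3.45 (SE 0.18, adjusted p = 1.23e-10). Elfn1, a postsynaptic adhesion protein, did not differ past the test in serum (6.85 and 7.19 against 5.52 and 8.21 CPM, adjusted p = 0.831) and was higher with miR-138 without serum (43.2 and 45.4 against 5.43 and 6.39 CPM). Nptx1, a neuronal pentraxin, read 0.354 and 0.482 CPM with miR-138 and 7.71 and 8.21 CPM with miR-137 in serum. Without serum it read 31.6 and 38.3 against 61.6 and 68.9 CPM, so its deficit was smaller there.

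Ptprn read 29.8 and 30.6 CPM with miR-138 and 56.9 and 53.8 CPM with miR-137 in serum, a gap of -0.87 in log2 against -4.35 without serum. Upp1 had a gap of -0.39 in serum and -3.33 without. Rgs4, a regulator of G protein signalling, and Dusp5, a MAP kinase phosphatase, changed sign with both calls past the test. Rgs4 read 38.7 and 37 CPM with miR-138 and 25.6 and 24.8 CPM with miR-137 in serum, and 54.2 and 62.6 against 247 and 271 CPM without. Dusp5 read 6.58 and 7 against 2.53 and 2.28 CPM in serum, and 5.03 and 4.47 against 8.23 and 9.74 CPM without. Ache, acetylcholinesterase, did not pass the test in serum (1.73 and 1.45 against 1.4 and 1.29 CPM, adjusted p = 0.579) and was lower with miR-138 without serum (4.9 and 8.07 against 24.5 and 28.8 CPM). Of the 19 genes with the largest changes without serum, 9 rises and 9 falls were called the same way in serum (70% of all no-serum calls). A difference between media was called for 5 rises and 6 falls (30.8% of all genes tested). These 19 genes were chosen for the size of their change without serum, which favours such a difference.

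**Figure D4:**
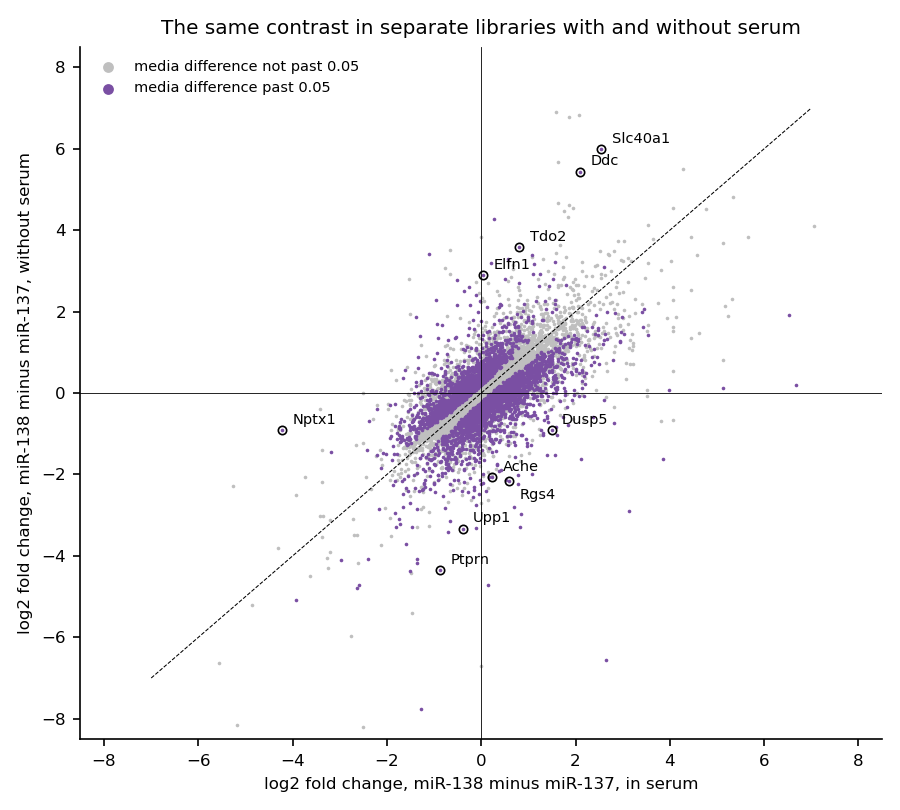
Log2 fold change, miR-138 minus miR-137, in serum (x axis) against without serum (y axis) for 12655 genes; purple genes (3900) passed the test of the difference between media, the dashed line marks equal values, and circles name the 5 largest differences in each direction. Slc40a1 lies above the line at 2.54 and 6.00, and Ptprn below it at -0.87 and -4.35.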

How the data were processed

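Polyadenylated RNA was sequenced as stranded, 50-base single-end reads, per the labels' protocols. The deposited files hold read counts per gene from STAR on mm9 (per the submitters' processing notes; versions are not given there). Column 4 was used, and its 4 rows that name no gene (27.6 to 32.2% of reads) stayed out. Symbols came from the supplied gene table for 32620 of 37310 identifiers. Counts of the 14 libraries of the third experiment (7 groups of 2) were fitted together with edgeR 4.0.16 in R 4.3.3: filterByExpr (count minimum 10, total 15), TMM scaling, glmQLFit and glmQLFTest, 2-sided, Benjamini-Hochberg adjustment, threshold 0.05. CPM values use TMM-scaled library sizes. The fit was tested on simulated data. Replicate libraries differed beyond sampling noise. Comparisons and gene lists were chosen with earlier results of these data known; targets come from general knowledge.

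Named genes were the hairpins, 11 chosen genes, the 10 largest rises and falls (mean of at least 5 CPM, groups apart), the 4 list members with the lowest adjusted p, and the 5 largest media differences each way; Stmn2, Stmn4, Rb1, Cdkn1c, Dcn and Aqp4 were chosen after their values were seen. Some genes that this rule selects are not reported here. Alternatives were DESeq2 1.42.0, RLE scaling, no filter, a replicate block, unstranded counts, the compared libraries alone and each library left out.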

Additional observations from a re-analysis of the deposited data

Results flagged for a closer look

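Of the 91 named genes that were tested, 59 had a mimic difference that changed between media (edgeR quasi-likelihood test of the interaction, adjusted p under 0.05). The share over all genes tested was 30.8%. Some named genes were chosen by this same difference and many by their values without serum. The count of 59 is thus partly set by the choice of genes. The values in brackets are the log2 fold change without serum minus that in serum. Time since transfection differs with the medium, and the cause was not tested.

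Over all genes with a called difference, the gap was larger in absolute size without serum for 1750 and smaller for 2150. Many named genes were picked for large or clear changes without serum, which favours a larger gap there. For 39 named genes the gap kept its direction and was larger without serum. Those higher with miR-138 were Slc40a1 (3.45), Ddc (3.35), Elfn1 (2.86), Tdo2 (2.78), Dbh (1.83), Tgfb2 (0.87), Lin28b (0.82), Stmn2 (0.81), Pmvk (0.74), Rb1 (0.60) and Hist1h1c (0.50). Among those lower with miR-138 the smaller differences were in Elovl6 (-0.26), Lamc1 (-0.32), Gata2 (-0.32), Tyms (-0.40), Uhrf1 (-0.47), Skil (-0.48), Slc7a5 (-0.61), Srebf2 (-0.63), Plk3 (-0.64) and Shmt2 (-0.70). The next were in Rcor2 (-0.74), Mycn (-0.75), Flna (-0.78), Ccnd1 (-0.83), L1cam (-0.86), Zyx (-0.94), Phlda3 (-0.94), Itga6 (-0.95), Tagln2 (-0.999) and Mapt (-1.10). Larger ones were in Cdkn1a (-1.12), Hdac5 (-1.16), Id1 (-1.72), Lrrc4b (-2.12), Vgf (-2.12), Tubb3 (-2.14), Upp1 (-2.94) and Ptprn (-3.47).

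The gap kept its direction and was smaller without serum for 16 genes. Genes with a smaller deficit with miR-138 were Nptx1 (3.32), Arid1a (0.85), Mki67 (0.79), Rhoc (0.64), Tut4 (0.62), Kif11 (0.61), Prc1 (0.49), Kif23 (0.40), Tnrc6c (0.39), Kif20a (0.36), Ezh2 (0.31), Nfix (0.30) and Ccnd3 (0.30). Genes with a smaller excess were Kdm1a (-0.45), Syt1 (-0.66) and Esrra (-0.72). Signs were opposite for 4 genes, Aldh1l2 (-1.48), Ache (-2.30), Dusp5 (-2.41) and Rgs4 (-2.74), of which Ache did not pass in serum.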

How the results depend on the processing

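Genes called without serum numbered 7794, and 6706 to 7970 under the 10 alternatives: 6908 with DESeq2, 7970 with the replicate block, 6706 to 6994 with 1 compared library left out. In serum they numbered 6763 to 8240, for the difference between media 2879 to 4322 (4303 with the replicate block), for miR-138 against pUC19 6942 to 8012 and for miR-137 against pUC19 4057 to 5697. None moved by over 1.5 times. The deviations of same-numbered libraries correlated at -0.02 for the compared groups and at -0.35 to 0.27 over all pairs of groups, so the numbers, which were not all above 0.1, were not taken as pairs. Of 909 values of the 91 named genes, all kept their direction and their side of the threshold; Th was filtered out with the compared libraries alone. Of 95 list medians, 27 moved by more than their spread between libraries, and 1 changed sign, the catecholamine list (0.03 without replicate 1 of miR-138). With DESeq2, 7 neuronal genes were higher and 12 lower. RLE scaling put the median of all genes at -0.0038. The planned seed-match description was not run, for want of a reference sequence. With 2 libraries a group, a lone library left in a group is assumed to vary like the others, and genes of low level are the least certain.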
